A study of Mus musculus with 12 samples.

Results

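The solute carrier transporters described here are 151 protein-coding genes with an Slc or Slco symbol. Their level averaged at least 3 FPKM (fragments scaled by gene length and a library factor) over 12 RNA-seq libraries of mouse embryonic stem cells. They were 151 of the 385 protein-coding genes with such a symbol, in a table of 54555 genes of which 22058 were protein coding. The members were therefore chosen by their measured level, which is given below as a description with no test. Solute carriers are membrane proteins that move sugars, amino acids, nucleosides, lipids, vitamins, metals and inorganic ions by facilitated diffusion, cotransport or exchange, across the plasma membrane or into organelles. In embryonic stem cells they are best known for the glucose, glutamine and other amino acid uptake that serves fast growth, for the mitochondrial carriers that exchange nucleotides and metabolites, and for the SLC35 family, which brings nucleotide sugars into the endoplasmic reticulum and Golgi for glycosylation. The sugar donor UDP-GlcNAc is also the substrate of OGT, the enzyme that adds O-linked GlcNAc to nuclear and cytoplasmic proteins and the target of the inhibitor used here.

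All libraries came from R1, a mouse embryonic stem cell line kept on gelatin with leukemia inhibitory factor (LIF), and there were 4 groups of 3 libraries. In RA_OGTi, cells were pretreated with the OGT inhibitor Ac45SGlcNAc (25 µM, 48 h) and then held for 48 h in medium with 1 µM retinoic acid (RA) and no LIF. In RA_control, cells had DMSO in place of the inhibitor and then the same RA medium. In mESC_OGTi, undifferentiated cells received the inhibitor at 25 µM for 48 h, and mESC_control held cells without it. The sources used here do not say whether the inhibitor stayed on during RA. In RA-treated cells, with or under the inhibitor means below only that they had this pretreatment. RA-treated cells had a further 48 h in RA medium after it, so state and time since the start of the inhibitor cannot be told apart. RA came together with the removal of LIF, so those factors cannot be told apart. The labels number the replicates and do not say whether they were separate cultures, so a p-value reflects only how these libraries vary, which could be technical variation. In these bulk libraries a smaller share of cells of one type and less RNA per cell cannot be told apart.

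Between 15553627 and 17833464 gene-assigned fragments per library could be recovered from the FPKM values. The summed FPKM was lower after RA, at 314041 to 351415 in the RA-treated libraries and 379109 to 406166 in the mESC libraries, so a comparison across RA depends on how the libraries are scaled. Pluripotency transcripts (7 of 7 tested, among them Pou5f1 and Nanog) fell with RA in both arms and the RA response list (7 of 7) rose. The summed FPKM of the pluripotency list was 328 to 357 in RA_OGTi, 400.1 to 445 in RA_control, 2365 to 2421 in mESC_OGTi and 2504 to 2509 in mESC_control libraries, and that of the RA response list 1077 to 1130.4 in RA_OGTi, 820.1 to 872 in RA_control, 51.8 to 58.8 in mESC_OGTi and 47.5 to 52.7 in mESC_control libraries.

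By substrate, the members fell into 20 amino acid carriers, 8 hexose carriers, 30 mitochondrial carriers, 17 SLC35 proteins (nucleotide sugar carriers and their uncharacterised relatives), 4 monocarboxylate and dicarboxylate carriers, 19 metal ion carriers, 18 carriers of inorganic ions and protons, 11 of vitamins and nucleosides, 7 of lipids, choline and bile acids and 13 others. The remaining 4 (Slc4a1ap, Slc7a6os, Slc9a3r1 and Slc9a3r2) match the symbol pattern but are not carriers. Levels were uneven, with 68 members at a mean of at least 10 FPKM and 6 at 100 FPKM or more. A pair of glucose carriers led the list, Slc2a3 (GLUT3) at a mean of 389 FPKM and Slc2a1 (GLUT1) at 339 FPKM, followed by Slc25a5 (ANT2, the mitochondrial ADP/ATP exchanger) at 306 FPKM. The others above 100 FPKM were Slc7a5 (LAT1, a carrier of large neutral amino acids) at 138 FPKM, the mitochondrial glutathione carrier Slc25a39 at 124 FPKM and Slc3a2, the heavy chain that carries Slc7a5 to the membrane, at 118 FPKM. In the smaller classes the highest means were 82.6 FPKM for the nucleoside carrier Slc29a1, 43.2 FPKM for the lactate exporter Slc16a3, 32.2 FPKM for the zinc carrier Slc39a1, 25.6 FPKM for the potassium-chloride cotransporter Slc12a4, 23.1 FPKM for the sulphate donor carrier Slc35b2, 18.8 FPKM for the heme carrier Slc48a1 and 17.4 FPKM for the fatty acid transport protein Slc27a3.

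Just inside the threshold of 3 FPKM lay Slc39a13 at a mean of 3.27, Slc7a4 at 3.27 and Slc25a26 at 3.08 FPKM, and just outside Slc22a23 at 2.81, Slc26a2 at 2.76 and Slc15a1 at 2.74 FPKM. Of the 151 members, 27 had at least 1 group mean under 3 FPKM and so entered through the groups in which they were high. Among those named below are Slc28a1, Slc13a5, Slc17a9, Slc22a17, Slc25a24, Slc30a3, Slc38a1, Slc35e4, Slc7a4 and Slc4a11. Slco4a1, Slc22a7, Slc25a42, Slc25a10, Slc5a4b, Slc43a2, Slc26a11 and Slc4a2 are others. A comparison of a low with a high group of such a gene is not independent of that choice, and its p-value is a description. Of the other 234 Slc genes, 20 were listed at 0 in every library. Slc7a11, the cystine carrier, stood at 0.0555 FPKM on average, and the nucleotide sugar carriers Slc35a3 and Slc35d1 at 2.24 and 1.72 FPKM, so these are not members.

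The 147 carriers together summed to 2798 ± 82.7 FPKM in RA_OGTi, 2956 ± 120.1 FPKM in RA_control, 3877 ± 147 FPKM in mESC_OGTi and 3803 ± 15.8 FPKM in mESC_control libraries (mean ± SD, n = 3 each). Mitochondrial, hexose and amino acid carriers made up most of that sum in each group. Hexose carriers held 19.6% ± 0.649 of it in RA_OGTi, 25.9% ± 0.600 in RA_control, 23.4% ± 1.67 in mESC_OGTi and 24.3% ± 0.940 in mESC_control libraries (SD, n = 3 each). By group mean the RA_OGTi share was the lowest of the 4 groups and the RA_control share the highest, although RA_control libraries overlapped those of mESC_control. The hexose sum itself was lower in RA_control, at 766 ± 46.4 FPKM, than in mESC_control libraries, at 925 ± 33.9 FPKM. It was 550 ± 25.9 FPKM in RA_OGTi and 911 ± 99.5 FPKM in mESC_OGTi libraries (SD, n = 3 each).

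**Figure D1:**
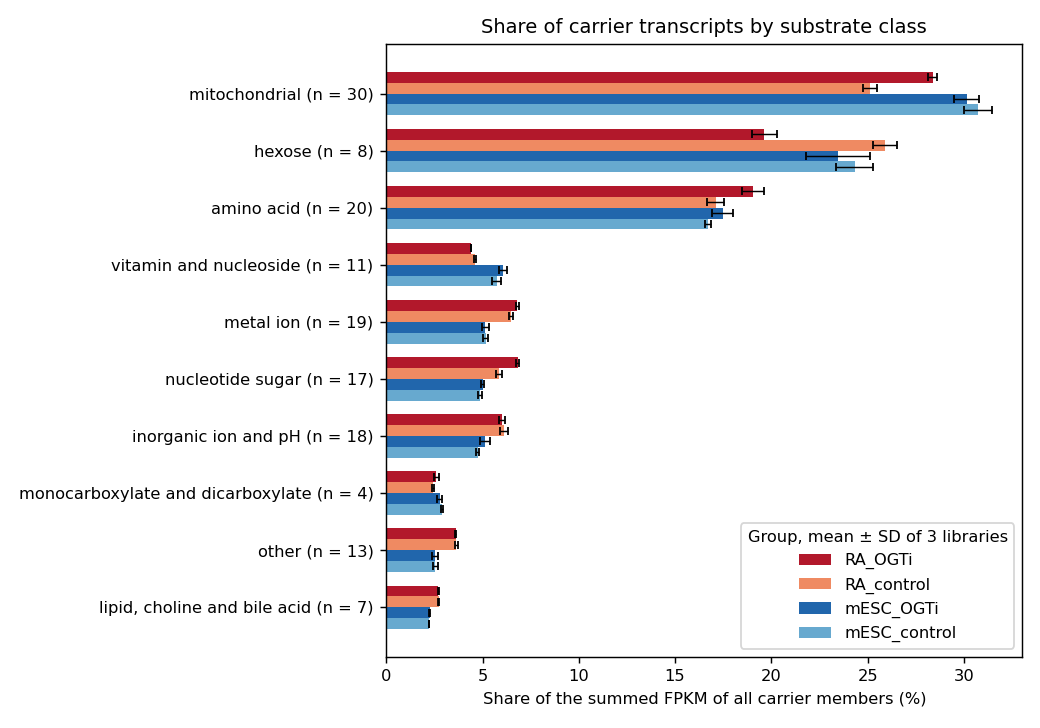
Share of the summed FPKM of the 147 carriers held by each substrate class (horizontal axis, percent), with bars for the mean and whiskers for the SD of 3 libraries per group, and n the number of genes in a class. Hexose carriers held 19.6% ± 0.649 in RA_OGTi and 25.9% ± 0.600 in RA_control libraries, and mitochondrial carriers 28.4% ± 0.224 and 25.1% ± 0.359.

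Differences between groups were tested with limma on log2(FPKM + 1) across all 14866 genes that reached 1 FPKM in 3 or more libraries. All 151 members passed this filter, and a member was called where its p-value, adjusted by Benjamini-Hochberg over all those genes, was under 0.05. Fold changes are given on the log2(FPKM + 1) scale, which understates the change of genes at a few FPKM. The shares over all genes given below include genes under the members' level of 3 FPKM and were not matched for level. With RA and no inhibitor (RA_control minus mESC_control), 43 members rose and 68 fell, where 70.9% of all genes were called (33.7% higher and 37.2% lower). In inhibitor-pretreated cells (RA_OGTi minus mESC_OGTi), 48 rose and 74 fell, with 68.7% of all genes called (32.0% higher and 36.7% lower). With every library rescaled to the same sum (TPM), these splits turned to 68 higher and 48 lower without the inhibitor, and 67 higher and 46 lower with it. Median-of-ratios scaling kept more falls than rises, with 54 higher and 66 lower without the inhibitor, and 51 and 71 with it. A count-based fit (limma-voom on recovered fragments) gave the same numbers. It also used median-of-ratios scaling, so it is not a separate check of the scaling. TPM scaling moved the median log2 fold change of all genes to 0.16, from -0.035, without the inhibitor, and to 0.18, from -0.043, with it. Relative to the median of all genes the members' median was -0.046 and -0.031 (FPKM and TPM) without the inhibitor, and -0.12 and -0.083 with it.

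The inhibitor changed fewer members. In RA-treated cells (RA_OGTi minus RA_control), 37 members rose and 37 fell, where 31.9% of all genes were called (17.6% higher and 14.3% lower). After TPM scaling the split was 46 higher and 30 lower. In mESCs (mESC_OGTi minus mESC_control), 13 rose and 10 fell, where 7.78% of all genes were called (4.60% higher and 3.18% lower), and the TPM split was 16 and 5. On the log2(FPKM + 1) scale, a called change of at least 2-fold was found for 1 member, Slc29a4, with the inhibitor in RA-treated cells, beside 0.827% of all genes, and for none in mESCs, beside 0.0605%. With RA such changes numbered 3 rises and 14 falls without the inhibitor (14.0% of all genes) and 3 and 16 with it (13.6%). The 3 libraries of each group did not overlap for 46 higher and 46 lower members with the inhibitor in RA-treated cells (44.1% of all genes), 39 higher and 23 lower in mESCs (29.8%), 48 higher and 69 lower with RA without the inhibitor (73.2%) and 51 higher and 75 lower with RA with it (71.9%). The median log2 fold change of the members was 0.0007 in RA-treated cells, against 0.0023 over all genes, and 0.06 in mESCs, against 0.0053.

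**Figure D2:**
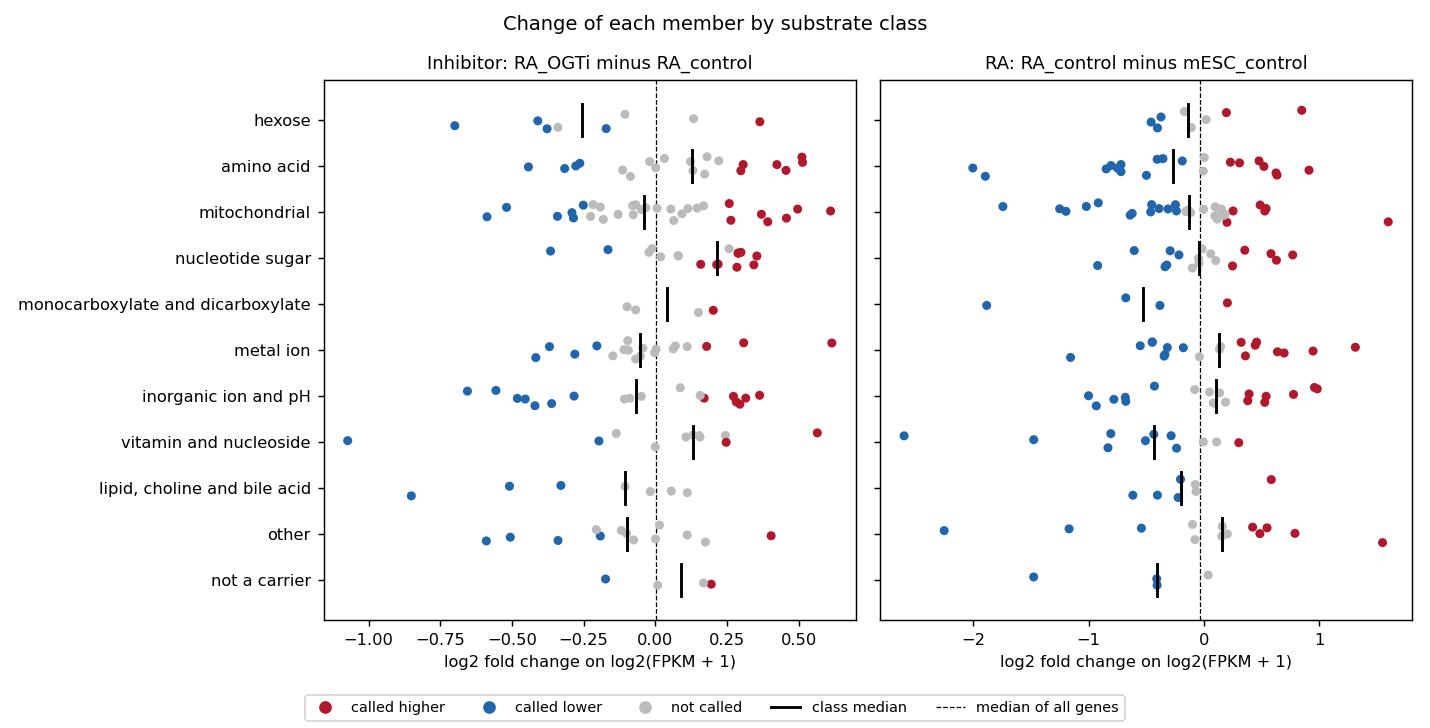
Log2 fold change of each of the 151 members on the log2(FPKM + 1) scale (horizontal axis) by substrate class, for RA_OGTi minus RA_control on the left and RA_control minus mESC_control on the right; points are genes, red called higher, blue called lower and grey not called, the thick bar is the class median and the dashed line the median of all genes. With the inhibitor the hexose median lay at -0.26 and the SLC35 median at 0.21, and the 2 panels have different axis ranges.

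Marker transcripts of other cell types moved with several of these comparisons. The summed FPKM of 6 trophoblast markers (5 tested) was 139 to 153 in RA_OGTi, 273 to 355 in RA_control, 90.6 to 107 in mESC_OGTi and 88.6 to 96.3 in mESC_control libraries, so it stood lower in RA_OGTi than in RA_control libraries. A sum is led by the most abundant markers. Of the 5 tested, 1 rose and 2 fell in that comparison, with a median log2 fold change of 0.14, so the list had no common direction. The sum of 6 extraembryonic endoderm markers was 19.6 to 21.2 in RA_OGTi, 16.6 to 18.9 in RA_control, 6.24 to 7.16 in mESC_OGTi and 5.91 to 6.35 in mESC_control libraries. With the inhibitor in RA-treated cells 6 of 7 pluripotency transcripts fell and 1 rose, and 5 of 7 RA response transcripts rose and 1 fell, beside 31.9% of all genes called. The sum of 6 neural markers was 18.1 to 22.3 in RA_OGTi, 22.4 to 24.6 in RA_control, 45.6 to 53.7 in mESC_OGTi and 39.6 to 43.0 in mESC_control libraries, and that of 8 fibroblast or feeder markers 13.2 to 13.9 in RA_OGTi, 12.9 to 16.1 in RA_control, 10.55 to 11.6 in mESC_OGTi and 11.2 to 12.04 in mESC_control libraries. One fibroblast or feeder marker was at 0 in all libraries, and 4 fibroblast, 2 neural and 1 trophoblast marker stayed under 1 FPKM in all. Of the 3 neural markers tested, 2 rose and 1 fell with RA in both arms, so most went against the sum. Their median log2 fold change was 0.55 without and 0.39 with the inhibitor, where 70.9% and 68.7% of all genes were called. The part of these lists in the carriers' changes was not tested.

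The promoters of 4 members are shown because the inhibitor moved these genes in opposite directions in RA-treated cells, Slc2a1 (glucose) and Slc20a1 (phosphate) down and the mitochondrial carriers Slc25a5 and Slc25a13 up. Each runs from 250 bases before to 50 bases after the RefSeq start nearest the gene's own (GRCm38.p6), read 5′ to 3′ on the strand of the gene, at chr4:119108495-119108794 (plus strand), chr2:129198523-129198822 (plus strand), chrX:36795347-36795646 (plus strand) and chr6:6217124-6217423 (minus strand). Capitals mark matches, on either strand, to the E-box CACGTG (bound by MYC, USF and ChREBP family factors) or to the core ACGTG of the hypoxia response element, and every E-box match is also a core match.
Slc2a1: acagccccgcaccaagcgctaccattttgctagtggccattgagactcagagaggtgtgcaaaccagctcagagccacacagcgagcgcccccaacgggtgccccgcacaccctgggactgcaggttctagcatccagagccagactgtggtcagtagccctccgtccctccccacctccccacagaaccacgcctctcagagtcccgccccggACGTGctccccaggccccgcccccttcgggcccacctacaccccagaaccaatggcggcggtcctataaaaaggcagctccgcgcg
Slc20a1: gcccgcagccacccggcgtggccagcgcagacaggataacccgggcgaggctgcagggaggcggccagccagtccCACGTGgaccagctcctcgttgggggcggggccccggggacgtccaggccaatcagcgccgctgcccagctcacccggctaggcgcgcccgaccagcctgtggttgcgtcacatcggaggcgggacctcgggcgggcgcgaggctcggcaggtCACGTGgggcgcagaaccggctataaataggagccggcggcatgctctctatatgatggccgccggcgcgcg
Slc25a5: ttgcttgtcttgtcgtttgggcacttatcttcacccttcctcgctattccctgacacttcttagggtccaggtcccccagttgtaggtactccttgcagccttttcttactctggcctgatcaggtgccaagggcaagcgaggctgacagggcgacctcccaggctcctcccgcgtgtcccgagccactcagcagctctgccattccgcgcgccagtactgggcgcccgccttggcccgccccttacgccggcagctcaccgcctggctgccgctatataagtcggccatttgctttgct
Slc25a13: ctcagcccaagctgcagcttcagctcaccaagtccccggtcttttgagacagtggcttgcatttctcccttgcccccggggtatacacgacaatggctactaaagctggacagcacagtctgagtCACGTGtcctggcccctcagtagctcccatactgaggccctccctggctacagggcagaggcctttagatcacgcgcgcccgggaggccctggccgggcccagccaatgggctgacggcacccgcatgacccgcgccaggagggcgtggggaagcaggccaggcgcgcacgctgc
Slc20a1 held 2 E-boxes, Slc25a13 held 1, Slc2a1 held the core alone at base 215, and Slc25a5 held neither. RefSeq promoters of this length were matched for 113 of the 151 members, 158 in all. The E-box was present in 13.3% of them and in 7.15% of all 32851 promoters, the hypoxia core in 30.4% and 19.6%, the amino acid response element TGATGNAA in 2.53% and 3.97%, and the retinoic acid response element of the DR5 type in 0 of 158 and in 3 of 32851. The promoters were not matched for the level of their genes, and several starts of 1 gene count separately, so the shares are not read as a trait of carriers. These shares are descriptions of letters in a window and say nothing of binding.

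With the inhibitor in RA-treated cells 4 of the 8 hexose carriers fell, both major glucose transporters among them, and 1 rose, beside 31.9% of all genes called. Slc2a1 (ENSMUSG00000028645; GRCm38 chromosome 4, 119108711 to 119137983, plus strand), the basal glucose carrier, had 192, 209 and 209 FPKM in RA_OGTi libraries, against 341, 309 and 343 FPKM in RA_control libraries. These did not overlap, and the mean was 0.615 times that of RA_control (log2 fold change -0.70 ± 0.097 SE, limma adjusted p = 3.84e-04). In the mESC groups Slc2a1 had 339, 363 and 450.5 FPKM in mESC_OGTi libraries, against 474, 419 and 422 FPKM in mESC_control libraries, which overlapped, and no change was called (-0.20, adjusted p = 0.248). Slc2a3 (GRCm38 chromosome 6, 122727809 to 122801640, minus strand), a high-affinity glucose carrier, had 274, 298 and 301 FPKM in RA_OGTi libraries, against 388, 349 and 397 FPKM in RA_control libraries, again without overlap (log2 fold change -0.38 ± 0.073 SE, limma adjusted p = 0.00260). In mESCs it had 420.1, 462 and 501 FPKM in mESC_OGTi libraries, against 426, 416 and 432 FPKM in mESC_control libraries, where the highest inhibitor values exceeded the controls but 1 lay among them (0.11, adjusted p = 0.392). Slc5a4b, of the sodium-glucose cotransporter family, fell as well, with 2.46, 2.72 and 2.42 FPKM in RA_OGTi libraries, against 3.48, 3.995 and 3.62 FPKM in RA_control libraries (log2 fold change -0.41, adjusted p = 0.00153). Reads shared with its close paralog Slc5a4a make its count uncertain. The member that rose was Slc45a3, a putative sugar carrier, at 9.93 ± 0.277 FPKM in RA_OGTi and 7.49 ± 0.145 FPKM in RA_control libraries (SD, n = 3 each; log2 fold change 0.36, adjusted p = 0.00691). With TPM the class count was 2 higher and 3 lower, and its median log2 fold change of -0.26 was below that of all genes under both scalings.

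With RA and no inhibitor 2 hexose carriers rose and 3 fell (2 and 2 with TPM), beside 70.9% of all genes called. Slc2a1 was 0.755 times its mESC_control mean in RA_control (log2 fold change -0.40 ± 0.097 SE, limma adjusted p = 0.00289), a call that TPM scaling ended (-0.16, adjusted p = 0.0892), and Slc2a3 was not called (-0.17, adjusted p = 0.0556). Slc2a3 did pass without RA_control replicate 3 (-0.21, adjusted p = 0.0393), mESC_OGTi replicate 1 (-0.17, adjusted p = 0.0375) or mESC_OGTi replicate 3 (-0.17, adjusted p = 0.0391). It also passed with the replicate number as a block (adjusted p = 0.0331). In inhibitor-pretreated cells the same step gave log2 fold changes of -0.90 (adjusted p = 5.79e-06) for Slc2a1 and -0.66 (adjusted p = 7.13e-06) for Slc2a3, the second at -0.39 (adjusted p = 2.27e-05) with TPM. Slc45a3 rose with RA in both arms, by 0.85 without and 1.01 with the inhibitor, and the intracellular hexose carrier Slc2a8 fell, with -0.46 (adjusted p = 1.33e-04) and -0.64 (adjusted p = 8.82e-06). With TPM the Slc2a8 falls were -0.23 (adjusted p = 0.00298) and -0.38 (adjusted p = 7.47e-05). Without the inhibitor Slc45a4 fell, with -0.37 (adjusted p = 1.09e-04), and the SWEET-family sugar carrier Slc50a1 rose, with 0.19 (adjusted p = 0.00550), values that TPM moved to -0.15 (adjusted p = 0.0299) and 0.42 (adjusted p = 3.35e-05). In inhibitor-pretreated cells the class stood at 1 higher and 5 lower with RA (2 and 4 with TPM), beside 68.7% of all genes called.

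Of 10 enzymes and regulators of glucose uptake and the first steps of glycolysis, 0 rose and 1 fell with the inhibitor in RA-treated cells, where 31.9% of all genes were called. The one that fell was Arrdc4, an arrestin-like protein that promotes glucose transporter endocytosis, with 120.3, 125 and 124 FPKM in RA_OGTi libraries, against 138, 141 and 142 FPKM in RA_control libraries (log2 fold change -0.18, adjusted p = 0.0259). In mESCs, where 7.78% of all genes were called, 1 of the 10 rose, Arrdc4 (0.29, adjusted p = 0.0123), and 1 fell, the pyruvate dehydrogenase kinase Pdk1 (-0.27, adjusted p = 0.0209). The inhibitor's effects in the 2 states differed by -0.48 (adjusted p = 0.00570) for Arrdc4 and 0.30 (adjusted p = 0.0466) for Pdk1. With RA, 3 of the list were higher and 6 lower without the inhibitor, beside 70.9% of all genes called, and 2 and 6 with it, beside 68.7%. Hexokinase 2 (Hk2), which traps glucose as its phosphate, had 24.3, 22.3 and 23.6 FPKM in RA_control libraries, against 101, 89.3 and 92.5 FPKM in mESC_control libraries, and the mitochondrial kinase Pdk1, which holds back pyruvate oxidation, 8.90, 9.45 and 8.48 FPKM in RA_control libraries, against 41.4, 46.2 and 44.1 FPKM in mESC_control libraries. Their log2 fold changes were -1.96 and -2.17 without the inhibitor and -1.68 and -1.87 with it, and the platelet phosphofructokinase Pfkp followed with -1.54 and -1.41. Arrdc4 went the other way, by 1.98 and 1.498, and each of these values was called.

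Of 4 monocarboxylate and dicarboxylate carriers 3 fell and 1 rose with RA without the inhibitor, and 3 fell and 0 rose with it. Over all genes 70.9% and 68.7% were called. The lactate carriers Slc16a3 (MCT4) and Slc16a1 (MCT1) fell without the inhibitor, with -0.68 (adjusted p = 2.92e-04) and -0.38 (adjusted p = 9.94e-05), and with it, with -0.60 (adjusted p = 6.98e-04) and -0.28 (adjusted p = 0.00104). TPM scaling ended both Slc16a1 calls, at -0.15 (adjusted p = 0.0858) and -0.01 (adjusted p = 0.872), and left Slc16a3 at -0.44 (adjusted p = 0.00135) and -0.34 (adjusted p = 0.00801). Slc13a5, the sodium-coupled citrate carrier of the plasma membrane, had 3.14, 3.16 and 3.38 FPKM in RA_OGTi, 2.48, 2.75 and 2.79 FPKM in RA_control, 13.8, 13.3 and 13.3 FPKM in mESC_OGTi and 12.2, 12.7 and 12.8 FPKM in mESC_control libraries. The RA libraries lay far below the mESC libraries in both arms, with log2 fold changes of -1.88 (adjusted p = 9.96e-11) without and -1.78 (adjusted p = 1.42e-10) with the inhibitor. With the inhibitor in RA-treated cells Slc16a3 was at -0.10 (adjusted p = 0.568) and Slc16a1 at 0.15 (adjusted p = 0.0683), neither called, although limma-voom on recovered fragments did call Slc16a1 (0.16, adjusted p = 0.0431). Slc13a5, picked here after its values were seen, was the 1 called member of the class, at 0.20 (adjusted p = 0.0101).

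Amino acid carriers split in both directions with RA. Of 20, 7 rose and 11 fell without the inhibitor (8 and 9 with TPM) and 7 and 11 with it (9 and 9). Over all genes 70.9% and 68.7% were called. The falls were led by Slc7a7, a light chain that exchanges cationic for neutral amino acids, with 6.398, 6.77 and 6.77 FPKM in RA_control libraries, against 26.8, 31.1 and 31.3 FPKM in mESC_control libraries (log2 fold change -2.004 ± 0.075 SE, limma adjusted p = 1.10e-09). Slc7a3 (GRCm38 chromosome X, 101079210 to 101086020, minus strand), a cationic amino acid carrier that brings in arginine and lysine, had 15.2, 11.98 and 13.8 FPKM in RA_OGTi, 9.21, 9.73 and 8.81 FPKM in RA_control, 33.2, 31.9 and 31.6 FPKM in mESC_OGTi and 36.8, 38.3 and 36.2 FPKM in mESC_control libraries. No RA library overlapped a mESC library, and the log2 fold change was -1.90 ± 0.07 (SE), limma adjusted p = 9.85e-10 without the inhibitor and -1.19 ± 0.07 (SE), limma adjusted p = 4.01e-08 with it. The other cationic carrier, Slc7a1, was at 9.38 ± 0.491 FPKM in RA_control and 16.1 ± 0.935 FPKM in mESC_control libraries (SD, n = 3 each). Slc38a1, a system A carrier of small neutral amino acids, fell by 0.85 (adjusted p = 1.04e-07), and its relative Slc38a2 by 0.75 without and 0.71 with the inhibitor (adjusted p = 3.19e-05 and 5.00e-05). With TPM the value of Slc38a2 with the inhibitor was -0.47 (adjusted p = 0.00557). The taurine carrier Slc6a6 fell in inhibitor-pretreated cells, with -1.04 (adjusted p = 6.21e-09).

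The Slc7a5 and Slc3a2 pair was the most abundant in the class, with RA changes well under a halving. Slc7a5 had 129, 118 and 135 FPKM in RA_OGTi, 124, 111 and 116 FPKM in RA_control, 155, 161 and 162 FPKM in mESC_OGTi and 157, 141 and 151 FPKM in mESC_control libraries. Slc3a2 had 105, 93.7 and 109.9 FPKM in RA_OGTi, 95.7, 83.8 and 93.8 FPKM in RA_control, 143, 152 and 151 FPKM in mESC_OGTi and 124, 131 and 131 FPKM in mESC_control libraries. With RA both fell, Slc7a5 with -0.36 (adjusted p = 2.84e-04) and -0.32 (adjusted p = 5.85e-04) and Slc3a2 with -0.50 (adjusted p = 3.32e-05) and -0.53 (adjusted p = 2.03e-05) (without and with the inhibitor), while TPM scaling ended both Slc7a5 calls (-0.12, adjusted p = 0.0711, and -0.05, adjusted p = 0.421) and moved Slc3a2 to -0.26 (adjusted p = 2.41e-04) and -0.26 (adjusted p = 2.64e-04). With the inhibitor the log2 differences were 0.12 (adjusted p = 0.154) and 0.17 (adjusted p = 0.0682) in RA-treated cells and 0.09 (adjusted p = 0.418) and 0.20 (adjusted p = 0.0830) in mESCs, none of them called. TPM scaling made calls of Slc7a5 in RA-treated cells (0.17, adjusted p = 0.0329) and of Slc3a2 in both states (0.22, adjusted p = 0.00328, and 0.21, adjusted p = 0.0167). For Slc3a2 a fit without RA_OGTi replicate 2 also made the call in RA-treated cells (0.24, adjusted p = 0.0185), as did limma-voom in both states (0.18, adjusted p = 0.0217, and 0.20, adjusted p = 0.0331).

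Other members of the amino acid class rose with RA in both arms. Slc43a3, counted here by its SLC43 family but known for nucleobases, had 6.89, 7.31 and 6.78 FPKM in RA_control libraries, against 3.28, 3.07 and 3.41 FPKM in mESC_control libraries (log2 fold change 0.91 ± 0.079 SE, limma adjusted p = 9.01e-07). Slc1a4 (ASCT1) and Slc1a5 (ASCT2), exchangers of small neutral amino acids of which the second carries glutamine, rose by 0.63 and 0.48 without and by 0.59 and 0.50 with the inhibitor, all called, and TPM put Slc1a5 at 0.77 (adjusted p = 1.47e-07) with the inhibitor. Slc38a4, another system A carrier, rose by 0.63 without the inhibitor (adjusted p = 1.08e-07). Slc7a4 rose by 0.55 with it (adjusted p = 5.45e-04).

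Of the amino acid carriers 6 rose with the inhibitor in RA-treated cells and 4 fell (8 and 4 with TPM), beside 31.9% of all genes called. Slc7a3 rose to 15.2, 11.98 and 13.8 FPKM in RA_OGTi libraries, against 9.21, 9.73 and 8.81 FPKM in RA_control libraries (log2 fold change 0.51 ± 0.07 SE, limma adjusted p = 3.56e-04). Slc38a7, a lysosomal carrier of glutamine and asparagine, had 16.1, 15.5 and 16.5 FPKM in RA_OGTi libraries, against 11.5, 10.95 and 10.4 FPKM in RA_control libraries (log2 fold change 0.51, adjusted p = 3.34e-04), and Slc36a1, a proton-coupled amino acid carrier of lysosomes, 6.64, 7.26 and 7.83 FPKM in RA_OGTi libraries, against 5.37, 5.01 and 4.63 FPKM in RA_control libraries (0.46, adjusted p = 6.98e-04). For all 3 the groups did not overlap. Slc1a4 rose by 0.30 (adjusted p = 0.0111). The falls were led by Slc43a2, a facilitative carrier of neutral amino acids, at -0.44 (adjusted p = 8.25e-04), the creatine carrier Slc6a8 at -0.32 (adjusted p = 1.94e-04) and Slc38a4 at -0.28 (adjusted p = 6.35e-04). Slc1a5 and Slc38a2 were not called, at 0.00 (adjusted p = 0.987) and 0.18 (adjusted p = 0.192).

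The amino acid response transcripts, a list of 14 genes known to be driven by ATF4 or amino acid shortage, did not move as one. With the inhibitor in RA-treated cells 5 rose and 3 fell, beside 31.9% of all genes called, and in mESCs 6 rose and 0 fell, beside 7.78%. The stress factor Ddit3 had 40.3, 40.5 and 46.2 FPKM in RA_OGTi libraries, against 76.8, 71.3 and 84.9 FPKM in RA_control libraries (log2 fold change -0.86, adjusted p = 1.19e-04), and in mESCs 13.8, 16.5 and 17.2 FPKM in mESC_OGTi libraries, against 10.47, 13.1 and 11.2 FPKM in mESC_control libraries (0.42, adjusted p = 0.0287). Its effects differed between the states by -1.28 (adjusted p = 5.97e-04), those of Atf4 by -0.73 (adjusted p = 0.0130), those of Ddit4, an inhibitor of mTORC1 signalling, by -0.84 (adjusted p = 0.0290), and those of the glutathione-degrading Chac1 by -1.52 (adjusted p = 0.0229). In RA-treated cells Ddit4 was at -0.98 (adjusted p = 5.06e-04), the proline synthesis enzyme Aldh18a1 at 0.47 (adjusted p = 2.71e-04) and Nupr1 at 0.43 (adjusted p = 0.0166). With RA the list had 5 higher and 7 lower without the inhibitor and 4 and 9 with it, among them Atf3 with 2.21 and 1.53 and the serine pathway enzyme Shmt2 with -1.01 and -1.04, all called. Over all genes 70.9% and 68.7% were called.

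Among mitochondrial carriers the adenine nucleotide exchangers parted with RA. Slc25a5 (ANT2; ENSMUSG00000016319; GRCm38 chromosome X, 36795651 to 36798807, plus strand), which exchanges ADP for ATP in dividing cells, had 175, 176 and 190.4 FPKM in RA_OGTi, 135, 136 and 141 FPKM in RA_control, 445, 433 and 455 FPKM in mESC_OGTi and 446, 488 and 452 FPKM in mESC_control libraries. The RA libraries of both arms lay below every mESC library, with a mean 0.297 times that of mESC_control in RA_control (log2 fold change -1.74 ± 0.052 SE, limma adjusted p = 2.11e-10) and 0.406 times that of mESC_OGTi in RA_OGTi (-1.30 ± 0.052 SE, limma adjusted p = 2.10e-09). Its paralog Slc25a4 (ANT1), whose test was picked after its values were seen, had 98.4, 97.4 and 105 FPKM in RA_OGTi, 103, 105 and 109 FPKM in RA_control, 85.5, 91.9 and 97.4 FPKM in mESC_OGTi and 91.8, 102 and 98.7 FPKM in mESC_control libraries, and was not called with RA (0.12, adjusted p = 0.0977, and 0.13, adjusted p = 0.0677). The summed mean of the 30 mitochondrial carriers was 794 ± 28.5 FPKM in RA_OGTi, 742 ± 28.6 FPKM in RA_control, 1168 ± 27.2 FPKM in mESC_OGTi and 1169 ± 28.7 FPKM in mESC_control libraries (SD, n = 3 each). Reads of Slc25a5 can be shared with Slc25a4 and with processed copies, and the sources used here do not say how the counting treated such reads.

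Of the 30 mitochondrial carriers 6 rose and 13 fell with RA without the inhibitor (14 and 10 with TPM, a reversed balance) and 8 rose and 16 fell with it (9 and 8). Median-of-ratios scaling gave 10 and 13 without the inhibitor and 9 and 14 with it. Over all genes 70.9% and 68.7% were called. The glycine carrier Slc25a38, needed for heme synthesis, had 3.15, 3.39 and 3.44 FPKM in RA_control libraries, against 8.56, 9.85 and 9.51 FPKM in mESC_control libraries (log2 fold change -1.25, adjusted p = 5.07e-08), and the pyrimidine nucleotide carrier Slc25a33 5.59, 5.45 and 5.67 FPKM in RA_control libraries, against 14.9, 13.5 and 13.8 FPKM in mESC_control libraries (-1.196, adjusted p = 9.85e-08). Slc25a12, an aspartate-glutamate carrier of the malate-aspartate shuttle, fell by 1.02 in inhibitor-pretreated cells (adjusted p = 2.06e-07), and Slc25a38 by 0.89. In the other direction, Slc25a24, a calcium-regulated carrier of ATP-Mg and phosphate, had 6.66, 7.76 and 6.90 FPKM in RA_OGTi, 7.96, 8.53 and 8.04 FPKM in RA_control, 2.39, 1.95 and 1.64 FPKM in mESC_OGTi and 1.89, 1.96 and 2.26 FPKM in mESC_control libraries, and its RA libraries were all above the mESC libraries. Its log2 fold change was 1.598 ± 0.091 (SE), limma adjusted p = 2.63e-08 without and 1.44 ± 0.091 (SE), limma adjusted p = 6.44e-08 with the inhibitor. The NAD carrier Slc25a51 rose by 0.54 and Slc25a30 by 0.53 without the inhibitor (adjusted p = 9.53e-06 and 8.94e-07), and with it the dicarboxylate carrier Slc25a10 rose by 0.50 and Slc25a25 by 0.41 (adjusted p = 2.22e-04 and 0.00146). TPM put Slc25a25 at 0.63 (adjusted p = 6.13e-05). The citrate carrier Slc25a1 was called lower in both arms, at -0.25 (adjusted p = 0.0155) and -0.32 (adjusted p = 0.00365), and TPM ended both calls (-0.01, adjusted p = 0.856, and -0.05, adjusted p = 0.417). The first of these calls was also lost without RA_control replicate 2 (-0.16, adjusted p = 0.0632) or mESC_control replicate 3 (-0.22, adjusted p = 0.0511).

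With the inhibitor in RA-treated cells 7 of the 30 mitochondrial carriers rose and 6 fell (10 and 4 with TPM), beside 31.9% of all genes called. Slc25a5 was among those that rose, to a mean 1.32 times that of RA_control (log2 fold change 0.39 ± 0.052 SE, limma adjusted p = 2.99e-04). Slc25a13 (ENSMUSG00000015112; GRCm38 chromosome 6, 6041218 to 6217173, minus strand), the aspartate-glutamate carrier paralogous to Slc25a12, had 29.2, 27.6 and 29.8 FPKM in RA_OGTi libraries, against 20.9, 20.3 and 21.0 FPKM in RA_control libraries, without overlap (log2 fold change 0.46 ± 0.042 SE, limma adjusted p = 2.94e-05). Slc25a10, which exchanges malate or succinate for phosphate, had 4.96, 4.97 and 5.58 FPKM in RA_OGTi libraries, against 3.21, 2.90 and 3.004 FPKM in RA_control libraries (0.61, adjusted p = 3.78e-04), and the carnitine-acylcarnitine carrier Slc25a20, which admits fatty acids for oxidation, 11.2, 9.41 and 10.9 FPKM in RA_OGTi libraries, against 7.75, 6.53 and 7.16 FPKM in RA_control libraries (0.50, adjusted p = 5.46e-04). The falls were led by the coenzyme A carrier Slc25a42, with 2.28, 2.50 and 2.83 FPKM in RA_OGTi libraries, against 4.21, 4.35 and 4.36 FPKM in RA_control libraries (-0.59, adjusted p = 8.59e-05), and Slc25a17, a peroxisomal carrier that is counted here by its SLC25 family, with 15.1, 16.9 and 14.0 FPKM in RA_OGTi libraries, against 22.5, 21.6 and 22.9 FPKM in RA_control libraries (-0.52, adjusted p = 2.71e-04). The pyrimidine nucleotide carrier Slc25a36 was at -0.34 (adjusted p = 0.00831), a call that TPM ended (-0.30, adjusted p = 0.0570). Slc25a1 was not called (0.05, adjusted p = 0.644).

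Of the 17 SLC35 members 9 rose and 2 fell with the inhibitor in RA-treated cells (9 and 1 with TPM), with a median log2 fold change of 0.21 against 0.0023 over all genes. The sizes were small, and 31.9% of all genes were called. Slc35d2, which carries UDP-GlcNAc and related nucleotide sugars into the Golgi, had 4.83, 5.77 and 5.61 FPKM in RA_OGTi libraries, against 3.65, 4.12 and 4.24 FPKM in RA_control libraries, without overlap (log2 fold change 0.35 ± 0.076 SE, limma adjusted p = 0.00458). Slc35e3, with no settled substrate, had 8.42, 8.48 and 8.28 FPKM in RA_OGTi libraries, against 6.74, 6.91 and 5.62 FPKM in RA_control libraries (0.34, adjusted p = 0.00241). Slc35e4, likewise uncharacterised, stood at 0.30 (adjusted p = 0.0488), and its call was lost with a pseudocount of 0.1, without the filter on low values, and without RA_OGTi replicate 1, RA_OGTi replicate 3, RA_control replicate 1, RA_control replicate 2, mESC_OGTi replicate 1, mESC_OGTi replicate 2, mESC_OGTi replicate 3 and mESC_control replicate 3 (adjusted p 0.0597 to 0.154). The replicate number as a block also ended the call (adjusted p = 0.0535). The fall of Slc35f5, another family member without an assigned sugar, was the larger of 2, with 9.18, 8.76 and 9.69 FPKM in RA_OGTi libraries, against 12.1, 12.1 and 12.2 FPKM in RA_control libraries (-0.37, adjusted p = 6.28e-04). The CMP-sialic acid carrier Slc35a1 had 12.9, 12.5 and 13.5 FPKM in RA_OGTi libraries, against 14.9, 15.2 and 13.9 FPKM in RA_control libraries (-0.16, adjusted p = 0.0242). This second fall was lost with TPM (-0.12, adjusted p = 0.185), with limma-voom (-0.17, adjusted p = 0.0657), in a fit of the RA libraries alone (-0.16, adjusted p = 0.0731) and without RA_OGTi replicate 1, RA_OGTi replicate 2, RA_control replicate 1 and RA_control replicate 2 (adjusted p 0.0700 to 0.0792). The UDP-galactose carrier Slc35a2 and Slc35b4, a carrier of UDP-xylose and UDP-GlcNAc, were not called, at 0.08 (adjusted p = 0.329) and -0.02 (adjusted p = 0.821).

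With RA the family had no common direction. Without the inhibitor 5 rose and 6 fell (8 and 3 with TPM), and with it 7 and 4 (12 and 2), beside 70.9% and 68.7% of all genes called. Slc35b1, which exchanges ATP for ADP in the endoplasmic reticulum, had 9.07, 9.41 and 9.06 FPKM in RA_OGTi, 9.67, 9.15 and 8.36 FPKM in RA_control, 19.4, 18.5 and 18.2 FPKM in mESC_OGTi and 18.96, 19.4 and 15.9 FPKM in mESC_control libraries. It was low in all RA libraries (log2 fold change -0.92, adjusted p = 3.51e-07, without and -0.95, adjusted p = 2.75e-07, with the inhibitor). Slc35f2 fell too, by 0.60 and 0.51 (-0.38, adjusted p = 5.83e-05, and -0.25, adjusted p = 0.00149, with TPM), and Slc35e1 by 0.34 without the inhibitor (-0.11, adjusted p = 0.0300, with TPM). Slc35e4, Slc35f5 and Slc35b4 rose in both arms, by 0.77, 0.63 and 0.58 without and by 0.73, 0.54 and 0.45 with the inhibitor, all called. Slc35g1 rose with it by 0.47 (0.73, adjusted p = 1.37e-05, with TPM). Of the carriers of named sugars, Slc35a2 was called lower at -0.22 (adjusted p = 0.00578) without the inhibitor and -0.19 (adjusted p = 0.0116) with it, and TPM ended the first call (-0.01, adjusted p = 0.883) and turned the sign of the second (0.04, adjusted p = 0.551), which limma-voom also ended (-0.16, adjusted p = 0.0676). Slc35d2 was called lower without the inhibitor (-0.32, adjusted p = 0.00241; -0.13, adjusted p = 0.207, with TPM) and not with it (-0.08, adjusted p = 0.362). Slc35a1 was called higher at 0.25 (adjusted p = 7.35e-04) and 0.14 (adjusted p = 0.0204), or 0.47 (adjusted p = 5.59e-05) and 0.40 (adjusted p = 2.18e-04) with TPM, and the call with the inhibitor was lost without RA_OGTi replicate 3, mESC_OGTi replicate 2 and mESC_OGTi replicate 3 (adjusted p 0.0553 to 0.0739).

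Of 21 enzymes that make nucleotide sugars 19 were tested. With the inhibitor in RA-treated cells 2 rose and 7 fell, beside 31.9% of all genes called (17.6% higher and 14.3% lower). Ugp2, which makes UDP-glucose, had 10.03, 11.5 and 9.98 FPKM in RA_OGTi libraries, against 13.3, 13.9 and 14.0 FPKM in RA_control libraries (log2 fold change -0.36, adjusted p = 9.18e-04), and Ugdh, which makes UDP-glucuronate, 5.26, 5.98 and 5.11 FPKM in RA_OGTi libraries, against 7.51, 6.79 and 7.38 FPKM in RA_control libraries (-0.35, adjusted p = 0.00282). The galactose enzyme Galt was at -0.41 (adjusted p = 0.00733), and Gne, which starts sialic acid synthesis, rose by 0.33 (adjusted p = 0.00532). With RA 10 rose and 6 fell without the inhibitor, beside 70.9% of all genes called. Gfpt1 and Uap1 of the hexosamine pathway rose by 0.89 and 0.68, and Gmds and Tsta3 of the GDP-fucose pathway moved apart, at 0.73 and -0.73, all called.

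Phosphate, pH and ion carriers held a pair of paralogs that moved apart with the inhibitor in RA-treated cells. Slc20a1 (ENSMUSG00000027397; GRCm38 chromosome 2, 129198764 to 129211616, plus strand), the sodium-phosphate cotransporter PiT-1, had 8.66, 8.55 and 8.60 FPKM in RA_OGTi, 13.4, 12.5 and 13.5 FPKM in RA_control, 25.7, 25.6 and 24.8 FPKM in mESC_OGTi and 22.5, 22.7 and 24.6 FPKM in mESC_control libraries. Slc20a2 (PiT-2) had 13.1, 13.6 and 14.3 FPKM in RA_OGTi, 10.8, 10.4 and 9.94 FPKM in RA_control, 24.6, 26.0 and 25.6 FPKM in mESC_OGTi and 21.4, 22.5 and 21.3 FPKM in mESC_control libraries. In RA-treated cells Slc20a1 fell with the inhibitor (log2 fold change -0.56 ± 0.046 SE, limma adjusted p = 1.79e-05) and Slc20a2 rose (0.36 ± 0.049 SE, limma adjusted p = 2.97e-04), with no overlap of libraries for either. With RA both fell, Slc20a1 by 1.46 with the inhibitor (adjusted p = 3.54e-10) and Slc20a2, whose RA test was picked after its values were seen, by 0.85 (adjusted p = 2.93e-08). Slc4a11, a proton and ammonia-linked member of the bicarbonate carrier family, had 2.21, 2.38 and 2.44 FPKM in RA_OGTi libraries, against 4.16, 4.29 and 4.33 FPKM in RA_control libraries (-0.65, adjusted p = 4.48e-05). Slc26a11, a sulphate and anion carrier, had 5.26, 5.53 and 4.95 FPKM in RA_OGTi libraries, against 3.97, 3.84 and 4.24 FPKM in RA_control libraries (0.32, adjusted p = 0.00730). The 18 carriers of inorganic ions counted 6 higher and 7 lower, beside 31.9% of all genes called. With RA the neuronal sodium-proton exchanger Slc9a5 rose by 0.96 without the inhibitor (adjusted p = 4.42e-07). The class had 7 higher and 6 lower without (11 and 5 with TPM) and 8 and 7 with the inhibitor (9 and 6), beside 70.9% and 68.7% of all genes called.

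Metal ion carriers changed in both directions with RA. The vesicular zinc carrier Slc30a3 (ZnT3) had 6.29, 5.74 and 5.90 FPKM in RA_control libraries, against 1.503, 1.92 and 2.02 FPKM in mESC_control libraries (log2 fold change 1.31 ± 0.083 SE, limma adjusted p = 6.32e-08, and 0.92 with the inhibitor), and the magnesium carrier Slc41a3 rose by 0.95 (adjusted p = 1.36e-06). With RA in inhibitor-pretreated cells, Slc30a9 rose by 0.73 and the zinc exporter Slc30a2 fell by 1.39 (adjusted p = 2.12e-07 and 3.81e-08). The class stood at 8 higher and 8 lower without (11 and 4 with TPM) and 10 and 6 with the inhibitor (13 and 3), beside 70.9% and 68.7% of all genes called. Under the inhibitor in RA-treated cells Slc39a11 (ZIP11), an intracellular zinc carrier, had 15.96, 16.3 and 17.9 FPKM in RA_OGTi libraries, against 10.9, 10.4 and 10.3 FPKM in RA_control libraries (log2 fold change 0.62 ± 0.071 SE, limma adjusted p = 1.20e-04). The class had 3 rises and 4 falls, beside 31.9% of all genes called.

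Of 11 vitamin and nucleoside carriers 8 fell and 1 rose with RA without the inhibitor (6 and 2 with TPM), and 8 fell and 0 rose with it (4 and 2). Over all genes 70.9% and 68.7% were called. Slc28a1 (CNT1), which takes up pyrimidine nucleosides with sodium, had 3.61, 3.50 and 3.97 FPKM in RA_OGTi, 2.27, 1.72 and 2.57 FPKM in RA_control, 17.95, 19.3 and 19.5 FPKM in mESC_OGTi and 16.2, 18.7 and 19.8 FPKM in mESC_control libraries. Its RA libraries held a small fraction of the mESC level, and the log2 fold change was -2.60 ± 0.098 (SE), limma adjusted p = 1.10e-09 without and -2.09 ± 0.098 (SE), limma adjusted p = 6.03e-09 with the inhibitor. Slc28a1 is a member through the groups in which it was high. The riboflavin carrier Slc52a3 had 4.18, 3.73 and 4.19 FPKM in RA_control libraries, against 12.5, 14.2 and 12.4 FPKM in mESC_control libraries (-1.48, adjusted p = 9.32e-08). Slc29a1 (ENT1), the equilibrative carrier of purine and pyrimidine nucleosides, fell by 0.83 without and 1.27 with the inhibitor (adjusted p = 8.62e-08 and 3.21e-09). Under the inhibitor in RA-treated cells the largest change of any member on the log2(FPKM + 1) scale was that of Slc29a4 (PMAT), a polyspecific carrier of monoamines and other organic cations, with 8.58, 8.80 and 10.1 FPKM in RA_OGTi libraries, against 19.5, 19.95 and 21.5 FPKM in RA_control libraries. The RA_OGTi mean was 0.450 times that of RA_control (log2 fold change -1.07 ± 0.075 SE, limma adjusted p = 5.46e-06). Slc28a1 rose under the inhibitor, with 3.61, 3.50 and 3.97 FPKM in RA_OGTi libraries, against 2.27, 1.72 and 2.57 FPKM in RA_control libraries (0.57, adjusted p = 0.00138). Slc29a1 had 48.3, 49.8 and 50.8 FPKM in RA_OGTi libraries, against 57.2, 53.7 and 60.1 FPKM in RA_control libraries (-0.20, adjusted p = 0.0180), and this call was lost without RA_OGTi replicate 1, RA_control replicate 1 and RA_control replicate 3 (adjusted p 0.05002 to 0.0683).

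In the remaining classes the members named are single genes. Slc17a9, the vesicular nucleotide carrier, had 0.884, 1.02 and 1.09 FPKM in RA_OGTi, 1.13, 0.870 and 0.990 FPKM in RA_control, 9.14, 9.13 and 8.29 FPKM in mESC_OGTi and 7.07, 9.30 and 9.30 FPKM in mESC_control libraries. It was near 1 FPKM in every RA library of both arms (log2 fold change -2.25, adjusted p = 2.91e-09, without and -2.30, adjusted p = 2.76e-09, with the inhibitor), and is a member only through its mESC libraries. Slc22a17, a receptor for the iron-binding protein lipocalin 2, had 10.4, 9.21 and 9.84 FPKM in RA_control libraries, against 2.42, 2.62 and 3.08 FPKM in mESC_control libraries (log2 fold change 1.55, adjusted p = 1.39e-08, and 1.27, adjusted p = 7.49e-08, with the inhibitor). The heme carrier Slc48a1 rose by 0.82 with RA in inhibitor-pretreated cells (adjusted p = 1.14e-06). Slc9a3r1, a scaffold of apical membrane proteins and not a carrier, fell by 1.48 (adjusted p = 2.94e-09). Under the inhibitor in RA-treated cells Slco4a1, an organic anion carrier that takes up thyroid hormone, had 1.34, 1.605 and 1.27 FPKM in RA_OGTi libraries, against 3.16, 3.28 and 3.55 FPKM in RA_control libraries (-0.85 ± 0.089 SE, limma adjusted p = 6.71e-05). The organic anion carrier Slc22a7 had 2.27, 1.89 and 2.61 FPKM in RA_OGTi libraries, against 3.96, 3.71 and 3.97 FPKM in RA_control libraries (-0.59, adjusted p = 0.00181), and the sugar phosphate carrier Slc37a1 4.85, 4.60 and 4.63 FPKM in RA_OGTi libraries, against 3.61, 2.88 and 3.45 FPKM in RA_control libraries (0.40, adjusted p = 0.00163). None of these groups overlapped.

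**Figure D3:**
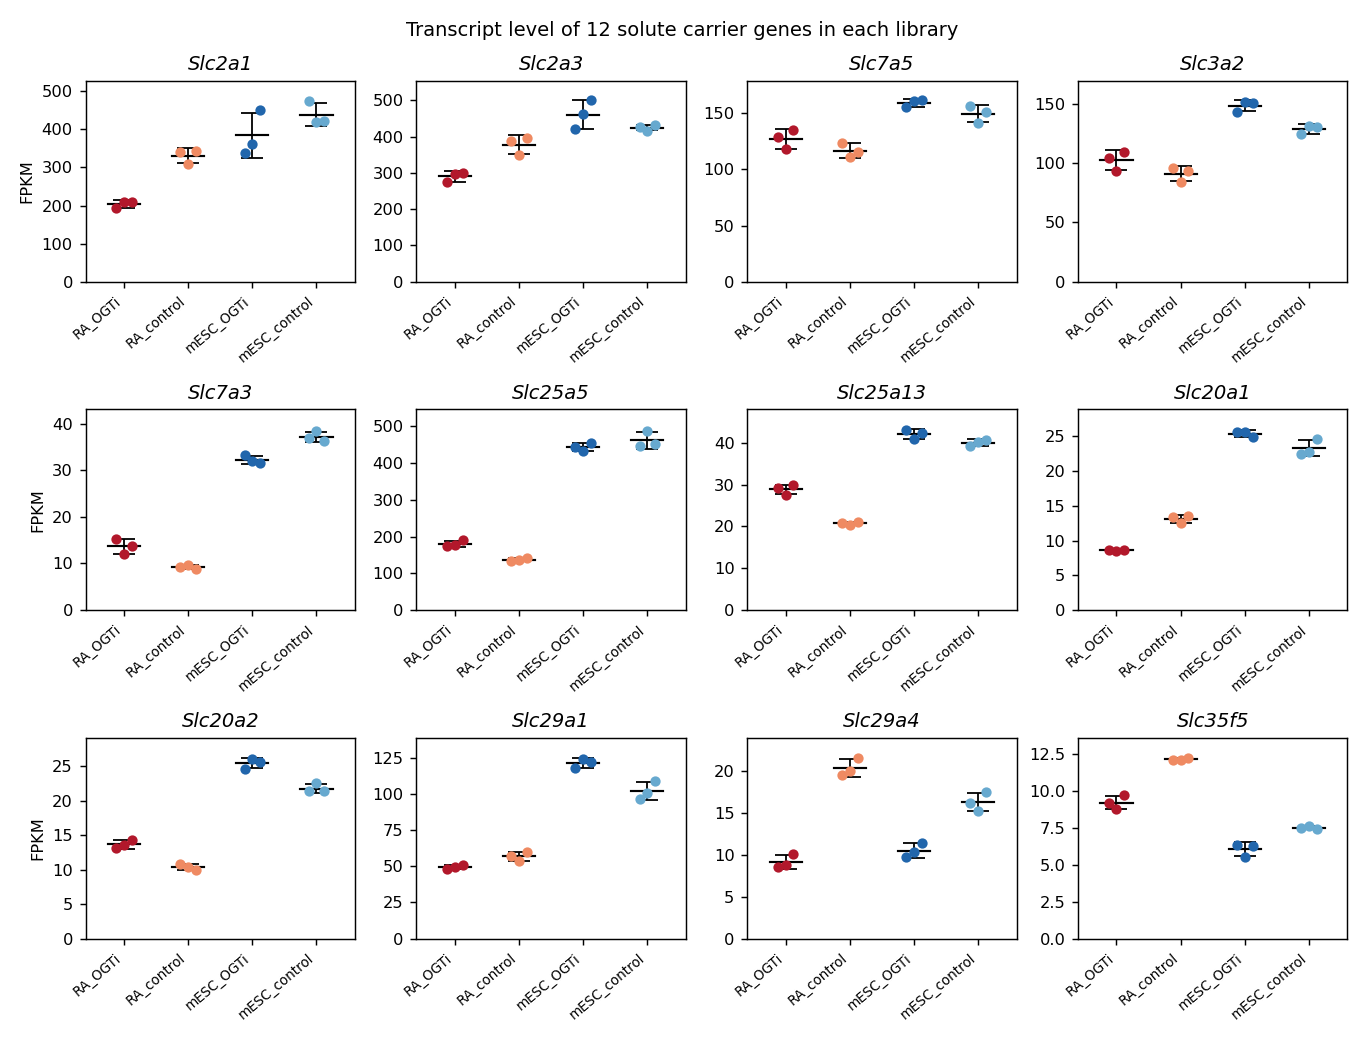
FPKM of 12 members, picked after their values were seen, in each library (vertical axes from 0, each gene on its own scale), with the bar and whiskers at the mean and SD of 3 libraries per group. Slc2a1, Slc2a3, Slc20a1, Slc29a4 and Slc35f5 lie lower in RA_OGTi than in RA_control libraries, and Slc7a3, Slc25a5, Slc25a13 and Slc20a2 higher, without overlap.

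In undifferentiated cells the inhibitor changed members by small amounts. The largest on the log2(FPKM + 1) scale was again Slc29a4, with 9.68, 10.3 and 11.4 FPKM in mESC_OGTi libraries, against 16.2, 15.3 and 17.4 FPKM in mESC_control libraries (log2 fold change -0.59 ± 0.075 SE, limma adjusted p = 0.00231). Slc26a11 had 3.88, 4.63 and 3.71 FPKM in mESC_OGTi libraries, against 3.01, 2.74 and 2.81 FPKM in mESC_control libraries (0.39 ± 0.073 SE, limma adjusted p = 0.0119). These 2 calls held in each fit that left out 1 library and under every other setting tried, which no other named mESC call did. The class of inorganic ions and pH counted 5 rises and 0 falls of 18, with the anion exchanger Slc4a2 at 0.39 and the potassium-chloride cotransporter Slc12a7 at 0.25, beside the zinc carrier Slc39a11 at 0.28 and Slc29a1 at 0.25. Amino acid carriers had 4 rises and 1 fall, with Slc38a7 at 0.37, Slc1a4 at 0.34, Slc7a1 at 0.33 and Slc7a7 at -0.35. Over all genes 4.60% were called higher and 3.18% lower. In the mitochondrial class, which counts the peroxisomal Slc25a17 by its SLC25 family, Slc25a20 rose by 0.36. Slc25a17, Slc25a16 and Slc25a23 fell by 0.36, 0.29 and 0.26. In the SLC35 family Slc35c2, linked to fucosylation of Notch, rose by 0.26 and Slc35f5 fell by 0.28. The zinc carriers Slc39a10 and Slc39a14, the copper carrier Slc31a2 and the thiamine carrier Slc19a2 fell by 0.30, 0.21, 0.28 and 0.26. The adjusted p-values of these calls lay between 0.00231 and 0.0473.

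The mESC calls rested on single libraries to a large degree. The count of 13 rises was 1 without mESC_OGTi replicate 2, 7 without mESC_OGTi replicate 3, 4 without mESC_control replicate 1 and 5 without mESC_control replicate 2. The count of 10 falls was 3 without mESC_OGTi replicate 2, 3 without mESC_OGTi replicate 3, 4 without mESC_control replicate 1, 2 without mESC_control replicate 2 and 6 without mESC_control replicate 3. Of the 20 named calls 16 were lost in the first of these fits (adjusted p 0.0529 to 0.120), among them Slc38a7, Slc1a4, Slc7a1, Slc4a2 and Slc12a7. Without mESC_OGTi replicate 3, 12 were lost (0.0506 to 0.148), among them Slc7a7, Slc25a20, Slc29a1 and Slc19a2. Without mESC_control replicate 1, 12 were lost (0.0533 to 0.134), and without mESC_control replicate 2, 15 (0.0519 to 0.134), among them Slc25a17, Slc25a16, Slc35f5, Slc39a11, Slc39a10 and Slc39a14. Leaving out mESC_control replicate 3 removed 5 (0.0541 to 0.111), Slc7a7, Slc25a23, Slc35c2, Slc19a2 and Slc39a14. Leaving out mESC_OGTi replicate 1 removed 4 (0.0525 to 0.104), Slc7a7, Slc25a23, Slc4a2 and Slc39a14. Since all groups share 1 estimate of spread, leaving out an RA library also cost up to 3 calls, of Slc25a23, Slc39a11 and Slc39a14 without RA_OGTi replicate 1 (0.0514 to 0.0701), of Slc25a23 and Slc39a14 without RA_OGTi replicate 2 (0.0547 and 0.0568), of Slc39a14 without RA_OGTi replicate 3 (0.0564) or RA_control replicate 1 (0.0640) and of Slc25a23 without RA_control replicate 3 (0.0516). TPM scaling ended 5 of the calls, of Slc25a16, Slc39a10, Slc31a2, Slc19a2 and Slc39a14, and a fit of the mESC libraries alone ended 8.

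The inhibitor comparisons in the 2 states share no library. Of the members, 10 were higher in both, among them Slc20a2, Slc1a4, Slc38a7, Slc35c2, Slc12a7, Slc39a11, Slc25a20, Slc26a11 and Slc4a2, and 6 lower in both (Slc25a17, Slc7a7, Slc29a4, Slc35f5, Slc39a10 and Slc25a16). That is 6.62% and 3.97% of the members, beside 2.89% and 1.78% of all genes tested. Members were called more often in each state alone, at 49.0% in RA-treated cells and 15.2% in mESCs, beside 31.9% and 7.78% of all genes. All genes were not matched to the members for level, so these shares are not read as a trait of carriers. In the fit of all libraries a single member, Slc29a1, was higher in mESCs and lower in RA-treated cells, and none was called the other way round, against 27 and 16 among all genes. Slc7a3, called higher in RA-treated cells, was called lower in mESCs in a fit of the mESC libraries alone (-0.20, adjusted p = 0.0464), with limma-voom (-0.21, adjusted p = 0.0474) and without RA_OGTi replicate 2 (-0.20, adjusted p = 0.0442). With RA, 37 members rose and 64 fell in both arms, 24.5% and 42.4% of the members beside 27.7% and 31.5% of all genes, and none moved in opposite directions.

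The inhibitor's effects in the 2 states, which also differ in the time since its start, were compared by the difference of effects (the inhibitor effect in RA-treated cells minus that in mESCs). It was called for 28 members, 8 with a more positive and 20 with a more negative effect in RA-treated cells, where 7.69% of all genes were called (3.90% and 3.79%). None of these differences reached 2-fold, which 0.484% of all genes did. The count of 8 fell to 3 to 5 without RA_OGTi replicate 1 or 3, RA_control replicate 1, mESC_OGTi replicate 1 or 2 or any 1 mESC_control library. By class the negative differences included 3 of 8 hexose carriers and 4 of 18 ion carriers. Slc2a1 differed by -0.50 ± 0.14 (SE), limma adjusted p = 0.0492 and Slc2a3 at -0.49 ± 0.1 (SE), limma adjusted p = 0.0175. Slc20a1 differed by -0.68 ± 0.066 (SE), limma adjusted p = 3.28e-04, with -0.56 in RA-treated cells and 0.12 in mESCs. Slc22a7, Slco4a1 and the imprinted organic cation carrier Slc22a18 had -0.71 (adjusted p = 0.0188), -0.61 (adjusted p = 0.0165) and -0.51 (adjusted p = 0.0146), and Slc29a1 -0.44 (adjusted p = 0.00750). Slco4a1 was at -0.94 (adjusted p = 0.00216) with limma-voom on recovered fragments. In the positive direction Slc7a3 had 0.71 ± 0.099 (SE), limma adjusted p = 0.00255, with 0.51 in RA-treated cells and -0.20 in mESCs. Slc25a5 had 0.45 ± 0.074 (SE), limma adjusted p = 0.00589 and Slc25a13 0.39 ± 0.059 (SE), limma adjusted p = 0.00379, with -0.06 and 0.07 in mESCs. Slc28a1 and Slc37a1 had 0.51 (adjusted p = 0.0459) and 0.42 (adjusted p = 0.0303).

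Of these, 3 differences were lost in most of the fits that left out 1 library, whichever group it came from. That of Slc2a1 was lost without RA_OGTi replicate 1, RA_OGTi replicate 2, RA_OGTi replicate 3, RA_control replicate 1, RA_control replicate 3, mESC_OGTi replicate 2, mESC_OGTi replicate 3, mESC_control replicate 2 and mESC_control replicate 3 (adjusted p 0.0584 to 0.112). That of Slc28a1 was lost without RA_OGTi replicate 1, RA_OGTi replicate 2, RA_OGTi replicate 3, RA_control replicate 1, RA_control replicate 2, mESC_OGTi replicate 1, mESC_OGTi replicate 2, mESC_OGTi replicate 3, mESC_control replicate 2 and mESC_control replicate 3 (adjusted p 0.0592 to 0.0987). That of Slc37a1 was lost without RA_OGTi replicate 1, RA_OGTi replicate 3, mESC_OGTi replicate 1, mESC_OGTi replicate 2, mESC_OGTi replicate 3, mESC_control replicate 1 and mESC_control replicate 3 (adjusted p 0.0510 to 0.0756). The Slc2a1 difference was also lost with a pseudocount of 0.1, and all 3 without the filter on low values. The other 9 named differences passed in all of the fits that left out 1 library.

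**Figure D4:**
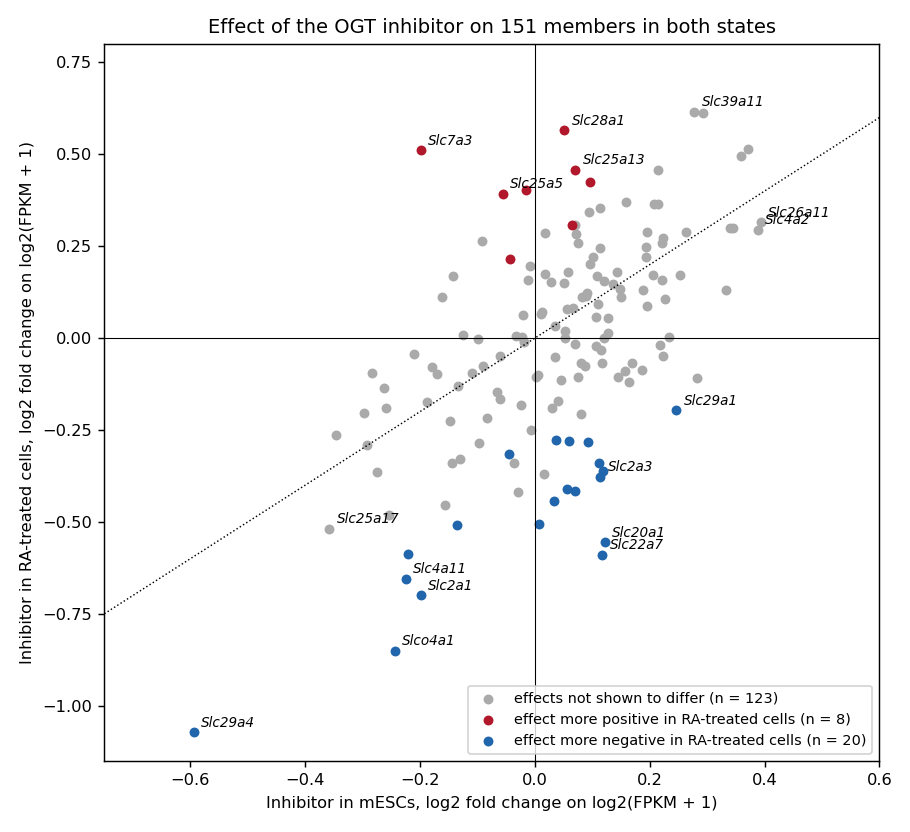
Log2 fold change with the inhibitor on the log2(FPKM + 1) scale in mESCs (horizontal axis) and in RA-treated cells (vertical axis) for the 151 members; red and blue points have a called difference of effects, grey points do not, and the dotted line marks equal effects. Slc7a3 lies at -0.20 and 0.51, Slc2a1 at -0.20 and -0.70 and Slc29a4 at -0.59 and -1.07 (mESCs and RA-treated cells).

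Of 24 carriers of the superfamily with other symbols 19 were tested. With the inhibitor in RA-treated cells 5 rose and 3 fell, where 31.9% of all genes were called. Sideroflexin 3 (Sfxn3), a mitochondrial serine carrier, had 8.74, 8.98 and 8.61 FPKM in RA_OGTi libraries, against 6.35, 6.08 and 6.19 FPKM in RA_control libraries (0.44, adjusted p = 6.98e-04), the cholesterol exporter of lysosomes Npc1 12.2, 12.6 and 13.4 FPKM in RA_OGTi libraries, against 10.1, 10.1 and 9.34 FPKM in RA_control libraries (0.34, adjusted p = 5.91e-04), and the outer membrane protein Mtch1 rose by 0.43 (adjusted p = 0.00183). The pyruvate carrier subunit Mpc1 was at -0.44 (adjusted p = 0.0249), at a low level, and at -0.68 (adjusted p = 0.0278) with a pseudocount of 0.1. In mESCs, where 7.78% of all genes were called, 1 rose and 1 fell, Npc1 with 0.41 (adjusted p = 0.00231) and the sphingosine-1-phosphate exporter Spns2 with -0.34 (adjusted p = 0.0243), or -0.52 (adjusted p = 0.0203) with a pseudocount of 0.1. With RA, where 70.9% of all genes were called, 10 rose and 6 fell without the inhibitor, among them the uncoupling protein relative Ucp2 with -1.34, the heme and choline carrier Flvcr2 with 1.29, the molybdate carrier Mfsd5 with -1.07 and the phosphate exporter Xpr1 with 0.92, all called.

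Of the 151 members, 25 overlap another gene at 1 FPKM or more, 23 of them on the opposite strand. The sources used here do not name the strand setting of the counting, so reads from the overlapping stretch cannot be told apart for Slc7a7 and Oxa1l, Slc39a11 and Cog1, or Slc25a23 and Crb3. For Slc4a2, at a mean of 3.29 FPKM, the overlap with Fastk at 23.7 FPKM covers 2511 bases. Slc2a3 overlaps the same-strand pseudogene Gm4482, at a mean of 3.78 FPKM.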

How the data were processed

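RNA-seq libraries of R1 cells were read from 1 deposited table. Its values are FPKM made by the authors. Per the submitters' processing notes, HISAT2 2.0.5 and featureCounts 1.5.0 were used with GRCm38; the sources used here do not name the filters, the strand setting or how FPKM was calculated. FPKM divides by gene length and a library factor, so groups are compared on a relative scale. Multiplied by gene length and this factor, the values were whole to within 0.02 for 100% of values. This gave 15553627 to 17833464 fragments per library, from which depth and limma-voom with median-of-ratios scaling (an alternative) were taken. These fragments were 1.06 to 1.11 times the total implied by the factor in mESC libraries, and 0.88 to 0.93 times in RA-treated libraries. So the factor was not their plain sum, and its ratio to that sum differed between mESC and RA-treated libraries. TPM scaling replaces this factor.

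All 12 libraries entered 1 limma fit (limma 3.58.1, R 4.3.3) on log2(FPKM + 1), with the group as the factor, for 14866 genes that reached 1 FPKM in 3 or more libraries. The 4 differences between groups and the difference of inhibitor effects were tested two-sided, with p-values adjusted by Benjamini-Hochberg over all genes and a threshold of 0.05. On simulated fragments, 94.0% of genes changed by 1.5-fold were called for the inhibitor in mESCs, 95.5% for the inhibitor in RA-treated cells and 77.6% for the difference of effects. Of genes changed by 2-fold, 100% were called in each. False calls numbered 8 to 22 per comparison, the most being 22 of 219 calls for RA without the inhibitor. The simulation gave every gene the same preset spread and changed few genes, all at 3 FPKM or more. These rates are therefore not the power of this experiment. Alternatives were a pseudocount of 0.1, no filter, TPM and median-of-ratios scaling, a replicate block, fits of the compared groups alone, limma-voom, leaving out each library, and other level thresholds. The members, classes and gene lists were chosen with earlier results of these data known.

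Genes were named by rule. For each comparison of a pair of groups these were the called members with the 3 largest rises and falls in the hexose, amino acid, mitochondrial and SLC35 classes, and the 5 largest over the other classes. For the difference of effects they were the 5 largest in each direction, to which 20 transporters of known roles were added whatever their test, and from each list up to 4 called genes per comparison. Some members that the rule names are not reported here. Promoter sequences came from RefSeq (GRCm38.p6), and summaries and figures were made with Python 3.11.15, pandas 2.3.3 and matplotlib 3.10.9.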

Additional observations from a re-analysis of the deposited data

Results flagged for a closer look

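A difference of the inhibitor effect between RA-treated cells and mESCs (RA_OGTi minus RA_control, less mESC_OGTi minus mESC_control) was called by a direct test for 12 named members. The 2 states also differ in the time since the start of the inhibitor. The effect was more positive in RA-treated cells for the arginine and lysine carrier Slc7a3 by 0.71, the pyrimidine nucleoside carrier Slc28a1 by 0.51, the ADP/ATP carrier Slc25a5 by 0.45, the sugar phosphate carrier Slc37a1 by 0.42 and the aspartate-glutamate carrier Slc25a13 by 0.39 on the log2 scale. It was more negative for the organic anion carrier Slc22a7 at -0.71, the phosphate carrier Slc20a1 at -0.68, Slco4a1 at -0.61, Slc22a18 at -0.51, the glucose carriers Slc2a1 at -0.50 and Slc2a3 at -0.49, and the nucleoside carrier Slc29a1 at -0.44. The differences of Slc2a1, Slc28a1 and Slc37a1 were lost in most fits that left out 1 library and without the filter on low values. For Slc29a1 the 2 effects had opposite signs and each was called, -0.20 in RA-treated cells and 0.25 in mESCs. Each of these 2 calls was lost in several fits that left out 1 library. Slc22a18 stood at -0.51 (adjusted p = 4.62e-04) in RA-treated cells and 0.01 (adjusted p = 0.973) in mESCs. All p-values are from limma.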

How the results depend on the processing

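With TPM scaling, members lower with the inhibitor in mESCs numbered 5, members higher with RA without the inhibitor 68 and members lower with RA with the inhibitor 46, and the RA change of Slc35a2 with the inhibitor turned to 0.0447 (adjusted p = 0.551). Without the filter on low values 5 members had a more positive difference of effects. Fewer or more genes enter with another level threshold. At a mean of at least 10 FPKM, 5 members were lower with the inhibitor in mESCs, 20 were higher and 18 lower with it in RA-treated cells, 15 were higher and 39 lower with RA without it, 14 were higher and 41 lower with RA with it, and 12 had a more negative difference. At 1 FPKM, 70 members were higher with RA without the inhibitor and 73 with it. Apart from the threshold, the cause of these moves was not tested.

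Leaving out each library in turn gave 1 to 15 members higher and 2 to 10 lower with the inhibitor in mESCs, 27 to 38 higher and 30 to 38 lower with it in RA-treated cells, 41 to 45 higher and 64 to 69 lower with RA without it, 41 to 48 higher and 71 to 75 lower with RA with it, and 3 to 7 positive and 14 to 19 negative differences. Correlations of same-numbered deviations ran from -0.021 to 0.12, and the same-numbered library was the best match in some cases only. With 3 libraries per group this cannot settle whether replicate numbers pair the libraries. With the replicate number as a block the counts were 14 and 10, 37 and 37, 45 and 69, 47 and 75, and 9 and 21 in the same order. The block put Slc25a23 with the inhibitor in mESCs at adjusted p = 0.0589, Slc35e4 with it in RA-treated cells at 0.0535 and Slc2a3 with RA without it at 0.0331, and changed no other named call. Of 214 named calls, 162 passed under every alternative run for them, 19 for each comparison and 18 for the difference of effects, and 52 were lost under some. Simulated 1.5-fold differences of effects were called in 77.6% of cases, at a preset spread that was the same for every gene.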
